A study of Mus musculus with 4 samples.

Results

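The tumour necrosis factor (TNF) ligand and receptor superfamily was followed across the cell types of mouse liver. Its members were taken as every gene whose symbol starts with Tnfsf or Tnfrsf, together with Cd40, Cd40lg, Cd27, Cd70, Fas, Ltbr, Lta and Ltb. This gave 40 of the 32285 genes listed, of which 15 were ligands, 24 were receptors and 1 was an antisense RNA gene, Tnfsf13os. Tnf and Fasl, a pair of ligands whose symbols fall outside this choice, were used only as partners of their receptors.

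Single-cell RNA sequencing had been performed on liver cell suspensions of adult male C57BL/6J mice, which had been obtained young and were then fed and treated for several months, to ask how the cells of the liver change with fatty liver diet feeding and under a herbal decoction, Jiangtang Qingre Formula. The normal chow diet (NCD) group gave 1 library and its mice received distilled water by mouth. The high-fat diet (HFD) group gave 2 libraries from mice fed that diet and given distilled water. The JQF group gave 1 library from mice on the same high-fat diet that received the formula during its later weeks, so HFD and JQF share the diet and differ in the oral treatment. The extraction protocol counts n = 1 for NCD, n = 2 for HFD and n = 1 for JQF, the same as the libraries, and mentions no pooling. NCD and JQF had no replicate, and any spread between libraries was known for HFD alone.

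After cells with fewer than 500 detected genes or more than 20% mitochondrial counts were left out, 5975 NCD, 6516 and 10259 HFD, and 8540 JQF cells remained, and 28924 of these cells were assigned to 1 of 13 types by marker genes. The libraries held 69445244 to 109446496 unique molecular identifiers (UMIs, each a distinct molecule) in called cells, and 14 to 30 cell barcodes were shared between any pair of libraries. Type names stand for cells that carry the markers of a type, so "B cell" means B cell-like. The NCD library stood apart in its makeup, since 63.4% of its kept cells were endothelial, against 1.61% and 11.6% in HFD and 7.06% in JQF. The labels name immune cells and hematopoietic stem cells, whereas a UMI of Ptprc, the pan-leukocyte gene, was found in 39.4% of NCD cells and in 83.6% to 91.6% of the cells of the other libraries, and UMIs of Ptprc, Kit and Cd34 together in only 1.61% to 4.60% of cells. Counts of each gene were summed over the cells of a type within a library and are given as CPM, that is scaled to the same total for every sum. In such sums, fewer expressing cells and less RNA per cell cannot be told apart.

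Ligands of the superfamily are mostly trimeric proteins of the cell surface that can also be shed, and they are made largely by immune cells. Receptors with a death domain, such as Fas and Tnfrsf1a, can start apoptosis or necroptosis, and some of them, such as Tnfrsf1a, also signal to NF-kappaB. Many receptors without one bind TRAF adaptors and turn on the canonical and non-canonical NF-kappaB pathways. In the liver the family is known for hepatocyte death, for costimulation of T and B lymphocytes, and for the lymphotoxin and RANK signals between lymphoid and myeloid or stromal cells.

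The superfamily was widely but unevenly expressed. A member was counted as present where a type held at least 10 CPM and at least 3 UMIs, among types with at least 50 cells in that library. By this measure 26 of the 40 members were present in some type in all 4 libraries, and 24 reached 30 CPM in at least 3 libraries in some type. Another 5 members were present in no type and library, namely the ligands Tnfsf15, Tnfsf18 and Cd70 and the receptors Tnfrsf14 and Tnfrsf11b. None of them was at 0, as every member had at least 3 UMIs in 1 library or more. Over the gated cells of a library Tnfrsf14 had 89 to 232 UMIs, Tnfsf15 67 to 153, Tnfsf18 21 to 69, Cd70 18 to 112 and Tnfrsf11b 10 to 84. They were thus detected but fell short of the cut of 10 CPM, and their absence is not shown. The type with the highest median level overlapped the second type over libraries for 24 members, and the order of types is given only as a description, because 4 libraries are too few for an exact test between types to pass.

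**Figure D1:**
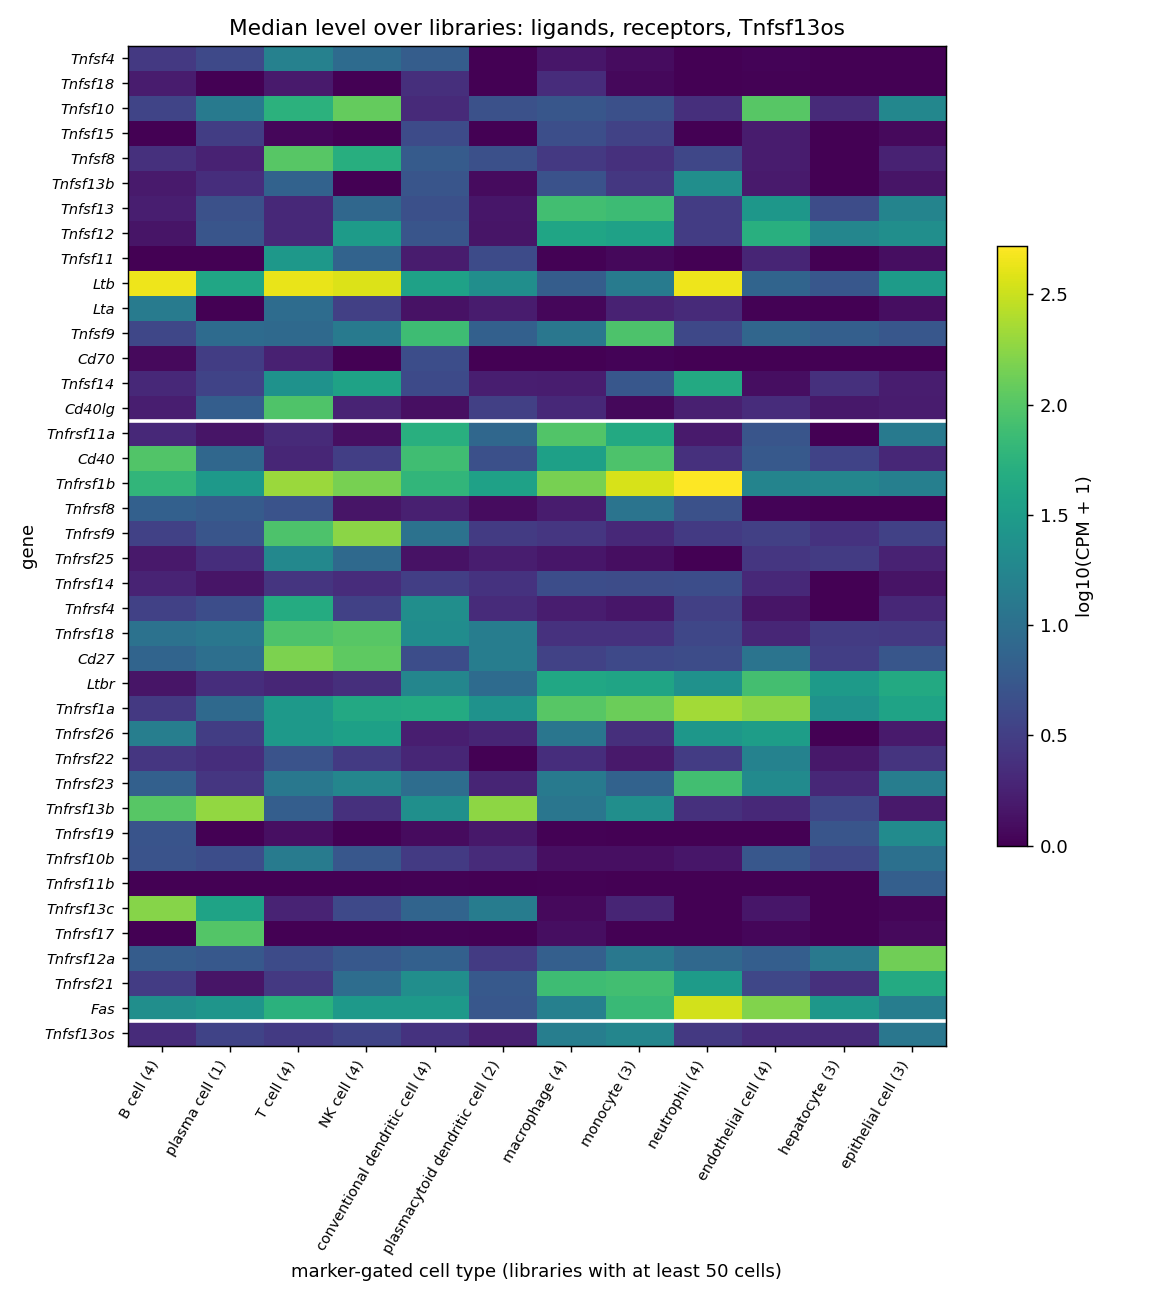
Level of each superfamily member (rows) in each gated cell type (columns), with brighter colours standing for higher levels. The colour gives log10(CPM + 1) of the median CPM over libraries with at least 50 cells. Ltb is brightest in B, T and NK cells and neutrophils, Tnfrsf1b in neutrophils, and Tnfrsf13c in B cells, while Tnfrsf14, Tnfrsf11b, Tnfsf15, Tnfsf18 and Cd70 stay dark throughout.

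Among the ligands, Ltb, the membrane anchor of the lymphotoxin heterotrimer, had its highest levels in lymphocytes and neutrophils. In T cells it was at 238 CPM in NCD, 500 and 384 CPM in HFD and 472 CPM in JQF, and in neutrophils at 219, 524, 449 and 444 CPM in the same order. Conventional dendritic cells held 29.1 to 36.1 CPM and macrophages 0.727 to 8.14 CPM of Ltb. Outside cells, in barcodes with at most 100 UMIs, the RNA held 63.7, 151, 74.7 and 154 CPM of Ltb, so the macrophage and dendritic cell levels lay below the level outside cells, and the neutrophil and lymphocyte levels above it. A UMI of Ltb was found in 54.5% to 60.7% of neutrophils.

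Tnfsf8, the CD30 ligand, was highest in T cells, at 113 CPM in NCD, 113 and 93.7 CPM in HFD and 70.7 CPM in JQF, above NK cells in every library. Tnfsf10, the death ligand TRAIL, had its highest level in NK cells, at 112, 136, 126 and 110 CPM, followed by endothelial cells at 106, 106, 98.0 and 99.3 CPM, and these ranges did not overlap. Its level differed little between the diets in either type. Tnfsf14, the ligand LIGHT of the lymphotoxin beta receptor, was at 35.7, 38.3, 50.1 and 49.0 CPM in neutrophils and at 29.0 to 37.6 CPM in NK cells, which overlapped.

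Myeloid and stromal cells carried a further set of ligands. Tnfsf13, the B cell survival factor APRIL, was at 90.5, 74.8, 80.0 and 71.1 CPM in macrophages and at 72.0, 78.6 and 68.9 CPM in the monocytes of the 3 libraries with enough of them, HFD and JQF. Tnfsf13b, the related factor BAFF, was present in neutrophils alone, at 15.3, 21.5, 24.2 and 20.9 CPM. Tnfsf12, the ligand TWEAK, was at 52.1, 49.3, 45.2 and 63.4 CPM in endothelial cells, and its range overlapped that of macrophages. Tnfsf12 and Tnfsf13 lie next to each other on chromosome 11 (GRCm38), where a readthrough gene joins them and Tnfsf13os runs on the opposite strand. Reads of these genes may therefore have been shared in counting. Tnfsf13os itself was highest in monocytes, at 14.8 to 19.0 CPM. Tnfsf9, the 4-1BB ligand, was found in conventional dendritic cells and in monocytes, where the HFD libraries had 48.0 and 89.3 CPM and JQF 93.8 CPM.

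Among the receptors of TNF itself, Tnfrsf1b (TNFR2), which lacks a death domain, had its highest level in neutrophils, at 676 CPM in NCD, 513 and 490 CPM in HFD and 533 CPM in JQF. Monocytes followed with 327, 357 and 378 CPM in HFD and JQF, and did not overlap with neutrophils. Tnfrsf1a (TNFR1), which carries a death domain, was at 317, 233, 205 and 179 CPM in neutrophils and at 152, 211, 164 and 190 CPM in endothelial cells, and here the order changed between libraries. Fas, the receptor of Fas ligand, was highest in neutrophils at 236, 375, 328 and 356 CPM and second in endothelial cells at 134, 169, 150 and 166 CPM, with no overlap. Ltbr, through which lymphotoxin signals to stromal cells, was highest in endothelial cells, at 60.2, 80.9, 78.2 and 87.3 CPM.

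Costimulatory receptors were held by lymphocytes. Cd27 was at 200, 145, 161 and 101 CPM in T cells and at 142, 115, 93.5 and 104 CPM in NK cells. Tnfrsf18 (GITR) was at 89.96, 131, 114 and 89.6 CPM in NK cells and at 69.0, 96.9, 109 and 83.2 CPM in T cells, and Tnfrsf9 (4-1BB) at 187, 226, 111 and 166 CPM in NK cells. For each of these receptors the NK and T cell ranges overlapped. Within T cells that carried a UMI of Foxp3, the regulatory T cell factor, Tnfrsf18 reached 184, 334, 257 and 235 CPM and Tnfrsf4 (OX40) 350, 322, 244 and 257 CPM, in 36 to 73 cells per library.

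The B lineage carried the receptors of APRIL and BAFF. Tnfrsf13c, the BAFF receptor, was highest in B cells at 55.9, 187, 178 and 160 CPM. Tnfrsf13b (TACI) was found in B cells and also in plasmacytoid dendritic cells, at 205 CPM in the second HFD library and 157 CPM in JQF. Tnfrsf17 (BCMA), which keeps plasma cells alive, was at 97.8 CPM in the plasma cells of JQF, the only library with at least 50 of them. Cd40, which receives help from T cells, was steady in B cells at 83.5, 95.8, 94.6 and 101 CPM.

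In other cells, Tnfrsf11a (RANK), the receptor through which osteoclasts and other myeloid cells are driven, was highest in macrophages at 82.8, 144, 109 and 77.0 CPM. Tnfrsf21 (DR6) was at 106, 73.4, 76.0 and 65.3 CPM in macrophages. Tnfrsf12a, the TWEAK receptor, and Tnfrsf19 were highest in epithelial cells, with 139, 74.6 and 135 CPM of Tnfrsf12a and 59.4, 13.6 and 19.4 CPM of Tnfrsf19 in HFD and JQF. The Tnfrsf12a range overlapped that of hepatocytes, which held 1.4 CPM in NCD and 109 and 11.5 CPM in HFD. The decoy receptor genes Tnfrsf22, Tnfrsf23 and Tnfrsf26 are near copies of one another on chromosome 7, so their counts are uncertain. Tnfrsf23 was highest in neutrophils at 66.2, 87.6, 39.8 and 90.9 CPM, Tnfrsf26 reached 13.1 to 38.9 CPM in NK cells and Tnfrsf22 6.32 to 18.8 CPM in endothelial cells.

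The comparison of HFD with NCD asked which members changed with the diet. For the 7 types with at least 50 cells in every library, summed counts entered edgeR's quasi-likelihood test across all genes, with Benjamini-Hochberg adjustment and a threshold of 0.05. The spread between libraries came from the HFD pair alone, with 1 residual degree of freedom, and was applied to NCD and JQF as well. The fit drew the spread of each gene towards that of the other genes of the type. Members passed this test 29 times in 184 tests of a member in a type, or 15.8%, and 18 of the 38 members tested passed in some type. By type, 5 of 22 members passed in B cells, where 16.9% of all genes did, 11 of 36 in T cells (14.1% of all genes), 3 of 22 in NK cells (17.9%), 7 of 37 in conventional dendritic cells (23.1%), 1 of 27 in macrophages (6.6%), 1 of 14 in neutrophils (6.33%) and 1 of 26 in endothelial cells (15.2%). These shares lay above those of all genes in B cells, T cells and neutrophils, most so in T cells, and below them in the other types, most so in endothelial cells. The differences were not tested, and the family as a whole is not set apart by them. The median log2 fold change of the members lay between -0.07 in NK cells and 0.58 in neutrophils, beside 0.01 to 0.13 for all genes.

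Ltb was higher in HFD in 4 types and Tnfrsf1b lower in 4. The promoters of both genes are printed here, as these are the members that passed in the most types, with that of Tnfrsf9. This gene is 1 of 8 members called lower in T cells, a call that DESeq2 did not keep, and 1 of 4 members with a motif match. The printed promoters are the 250 bases before and 50 bases after an annotated start in the RefSeq annotation of GRCm38.p6, written along the gene's strand. Capitals mark a match to the NF-kappaB consensus motif on either strand. The positions are chr17:35194257-35194556 on the plus strand for Ltb, chr4:145246821-145247120 on the minus strand for Tnfrsf1b and chr4:150927749-150928048 on the plus strand for Tnfrsf9. That gene has 2 promoters in the table, and the one with a match is printed, which lies 13437 bases within the gene as Ensembl annotates it. The other, 5593 bases within it, held 0 matches.
Ltb: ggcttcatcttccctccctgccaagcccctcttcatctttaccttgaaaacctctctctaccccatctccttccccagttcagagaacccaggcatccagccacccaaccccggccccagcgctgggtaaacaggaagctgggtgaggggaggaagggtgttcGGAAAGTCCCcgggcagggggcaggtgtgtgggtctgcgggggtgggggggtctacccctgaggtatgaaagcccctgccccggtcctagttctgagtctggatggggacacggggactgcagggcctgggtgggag
Tnfrsf1b: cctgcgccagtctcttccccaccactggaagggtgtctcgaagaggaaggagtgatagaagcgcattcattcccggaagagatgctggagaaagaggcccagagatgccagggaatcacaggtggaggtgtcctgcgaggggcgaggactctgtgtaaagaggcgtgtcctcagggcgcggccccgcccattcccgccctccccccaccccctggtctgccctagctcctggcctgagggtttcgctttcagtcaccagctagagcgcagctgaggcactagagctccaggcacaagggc
Tnfrsf9: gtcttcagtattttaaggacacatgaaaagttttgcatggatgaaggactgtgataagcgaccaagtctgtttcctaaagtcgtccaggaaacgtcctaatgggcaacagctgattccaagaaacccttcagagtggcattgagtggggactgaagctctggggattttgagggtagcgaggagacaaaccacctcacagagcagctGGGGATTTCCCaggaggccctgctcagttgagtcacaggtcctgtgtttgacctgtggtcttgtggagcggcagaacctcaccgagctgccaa

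The Ltb promoter held 1 match (GGAAAGTCCC), that of Tnfrsf9 held 2 that overlap (GGGGATTTCC and GGGATTTCCC) and that of Tnfrsf1b held 0. Across the RefSeq table the motif was found in 2779 of 32851 promoters, or 8.46%. Promoters were matched for 29 members, of which Ltb, Tnfrsf8, Tnfrsf9 and Tnfrsf25 held the motif. A match describes the letters only and shows no binding.

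In B cells, Ltb was at 187 CPM in NCD, 517 and 464 CPM in HFD and 421 CPM in JQF, and it was higher in the HFD libraries than in NCD (log2 fold change 1.33, SE 0.228, edgeR adjusted p = 0.0079). In NK cells it was at 184, 462, 427 and 327 CPM (log2 fold change 1.05, SE 0.205, adjusted p = 0.0031). The NCD library was the lowest of the 4 in each of these types. Outside cells Ltb was lower in NCD as well, at 63.7 CPM against 151 and 74.7 CPM in HFD. The part of this RNA in the Ltb calls was not tested. In T cells, with the levels given above, the log2 fold change was 0.85 (SE 0.235, adjusted p = 0.030), and in neutrophils 1.15 (SE 0.310, adjusted p = 0.035). The T cell call was lost without the 5% of cells with most UMIs (adjusted p = 0.073), and the neutrophil call when counts were thinned to the lowest library total (adjusted p = 0.28). The summed neutrophil markers of the neutrophils were lowest in NCD, at 34094, 57513, 72515 and 45197 CPM, and those of endothelial cells (329, 24.9, 118 and 39.5 CPM) and conventional dendritic cells (351, 194, 122 and 168 CPM) highest, and their part in the Ltb value was not tested. Lta, the soluble lymphotoxin, went the same way in B cells on few molecules, with 2.48 CPM (8 UMIs) in NCD, 13.98 and 12.9 CPM (27 and 29 UMIs) in HFD and 12.2 CPM in JQF (log2 fold change 2.35, SE 0.527, adjusted p = 0.020). DESeq2 gave it no adjusted p.

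**Figure D2:**
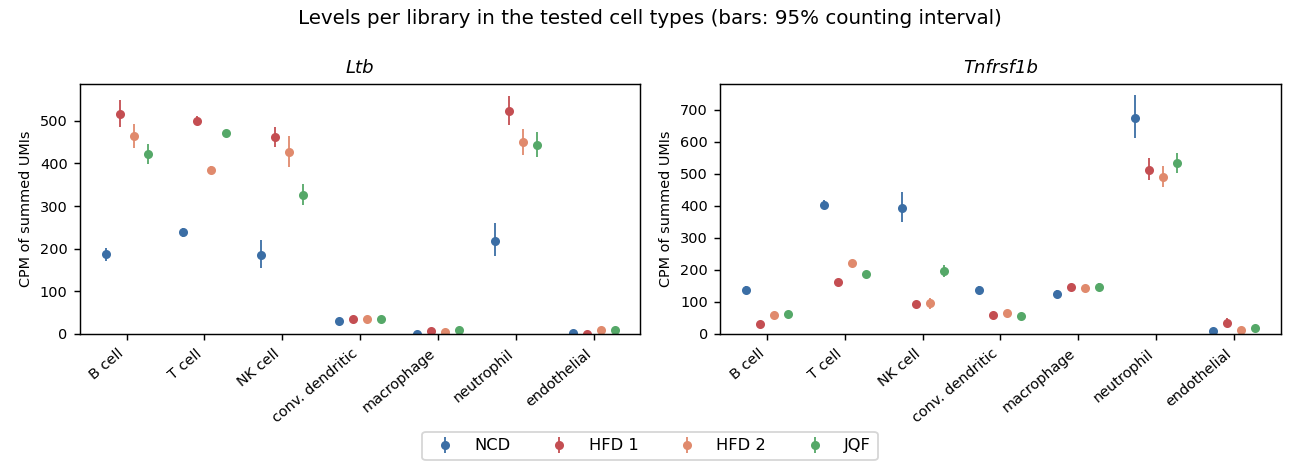
Level in CPM of Ltb, left, and Tnfrsf1b, right, in the 7 tested cell types. Each library is 1 point, with colours for NCD, HFD and JQF. For Ltb the NCD point lies below both HFD points in B, T and NK cells and neutrophils, and for Tnfrsf1b it lies above both in B, T, NK and conventional dendritic cells.

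Tnfrsf1b, the TNF receptor without a death domain, was lower in HFD in 4 types. In NK cells it was at 395 CPM in NCD, 92.9 and 94.98 CPM in HFD and 197 CPM in JQF (log2 fold change -2.29, SE 0.190, edgeR adjusted p = 2.8e-06), and 93.8% of NCD NK cells held a UMI of it, against 45.8% and 42.7% in HFD. Such shares also move with depth, and NK cells had a median of 10019 UMIs in NCD and 7495 and 5610 in HFD. NK cells of NCD were few, at 65, and the summed level of 10 NK cell markers in them was 3762 CPM, against 5555 and 7058 CPM in HFD and 6429 CPM in JQF, while T cell markers summed to 855 to 915 CPM in every library. In B cells it was at 137, 29.5, 58.5 and 61.8 CPM (log2 fold change -1.67, SE 0.334, adjusted p = 0.013). This value rested in part on the HFD pair, and was -2.32 without HFD replicate 2. In T cells the levels were 404, 161, 221 and 188 CPM (log2 fold change -1.11, SE 0.233, adjusted p = 0.0076), and in conventional dendritic cells 138, 58.0, 63.8 and 55.5 CPM (-1.27, SE 0.156, adjusted p = 0.0033). NCD was above every other library in each of the 4 types. Macrophages had 125, 145, 144 and 148 CPM and did not pass. Outside cells Tnfrsf1b stood at 61.5 CPM in NCD and 110 and 123 CPM in HFD, higher in HFD. The HFD levels of B, NK and conventional dendritic cells lay below those outside cells, and the HFD levels of T cells above them. The part of this RNA in the Tnfrsf1b calls was not tested.

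In T cells, 8 of the 11 members that passed were lower in HFD and 3 were higher. Cd40lg, the signal from helper T cells to Cd40, was at 161 CPM in NCD, 60.5 and 62.7 CPM in HFD and 123 CPM in JQF (log2 fold change -1.43, SE 0.184, edgeR adjusted p = 0.00031). Tnfsf4, the OX40 ligand, was at 66.2, 10.1, 19.5 and 2.29 CPM (-2.19, SE 0.319, adjusted p = 0.00083, and -2.80 without HFD replicate 2). Tnfsf11, the RANK ligand, was at 52.9, 23.9, 16.6 and 30.7 CPM (-1.43, SE 0.228, adjusted p = 0.0014). In each of these 3 ligands the NCD library was the highest. The receptors Tnfrsf9 (218, 57.4, 115 and 64.2 CPM, log2 fold change -1.36, adjusted p = 0.012) and Tnfrsf8, the CD30 receptor (14.6, 3.02, 4.07 and 3.79 CPM, -2.08, adjusted p = 0.0036), were lower as well. Tnfrsf9 differed between the HFD libraries and moved to -2.03 without HFD replicate 2. Its call was lost under DESeq2 (adjusted p = 0.41), and those of Tnfrsf9 and Tnfrsf8 without the 5% of cells with most UMIs.

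Of the receptors with a death domain, a pair passed as lower in T cells and Tnfrsf25 (DR3) as higher. Fas was at 82.3, 52.8, 52.0 and 53.3 CPM (log2 fold change -0.69, SE 0.184, edgeR adjusted p = 0.025) and Tnfrsf10b, the TRAIL receptor, at 18.7, 8.58, 7.42 and 16.6 CPM (-1.27, SE 0.263, adjusted p = 0.0069). Outside cells Fas stood at 77.3, 40.9, 40.4 and 42.1 CPM, close to the T cell level in each library and lower in HFD in the same way, and the part of this RNA in the T cell value was not tested. In NK cells Tnfrsf10b passed on 4 to 14 UMIs per library (17.4, 4.12, 2.99 and 4.74 CPM, -2.44, adjusted p = 0.048), and 3 of 9 alternatives lost that call. DESeq2 called neither Fas nor Tnfrsf10b in T cells (adjusted p = 0.097 and 0.067) and gave Tnfrsf10b in NK cells no adjusted p. Tnfrsf25, which also costimulates T cells, was at 8.39, 21.1, 13.9 and 23.9 CPM (1.01, SE 0.304, adjusted p = 0.042), a call that 5 of 9 alternatives lost. Tnfrsf11a in T cells had 0 UMIs in NCD and 34, 19 and 34 UMIs in the other libraries, at least 4.91-fold higher in HFD against a floor of 3 UMIs over the NCD library. Its 1.23 to 2.10 CPM in HFD lay below the 28.2 and 36.2 CPM found outside cells, DESeq2 gave it no adjusted p, and the call was lost without the 5% of cells with most UMIs (adjusted p = 0.065). In endothelial cells Tnfrsf11a likewise passed at levels below those outside cells, with 0.993 CPM in NCD and 5.05 and 6.53 CPM in HFD (log2 fold change 2.47, adjusted p = 0.022), the first HFD value resting on 4 UMIs. That call was lost under DESeq2 (adjusted p = 0.41) and with no filter on low counts (adjusted p = 0.055).

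T cells of the libraries differed in makeup, and the makeup moved with the groups. Cells with a UMI of Cd8a or Cd8b1 made up 32.9% of NCD T cells, 51.4% and 60.9% of HFD and 23.3% of JQF, and cells with a Cd4 UMI 28.4%, 17.3%, 13.2% and 24.2%. The rest, without a UMI of Cd4, Cd8a, Cd8b1 or Foxp3, made up 32.0%, 26.6%, 22.0% and 49.6%. Such splits depend on detection, and the share of T cells in each also moves with depth. The tests were therefore repeated within each split, a step added after the data were seen.

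Within these splits, the lower Tnfsf4 was seen in Cd8a or Cd8b1 cells, at 174 CPM in NCD, 17.7 and 28.5 CPM in HFD and 3.79 CPM in JQF (edgeR log2 fold change -2.90, SE 0.318, adjusted p = 0.0059), while Cd4 cells held 2.28 to 3.86 CPM. Cd40lg was low in Cd8a or Cd8b1 cells, at 4.03 to 18.1 CPM. In Cd4 cells it was at 252, 131, 215 and 188 CPM and did not pass (-0.56, SE 0.287, adjusted p = 0.20), whereas in cells with none of the 4 genes it was at 350, 125, 167 and 147 CPM and did (-1.49, SE 0.204, adjusted p = 2.3e-07). Whether these splits differ from one another was not tested. Tnfrsf1b passed in Cd4 cells at 378, 119, 118 and 172 CPM (-1.69, adjusted p = 0.00060) and in cells with none of the genes (-2.19, adjusted p = 1.8e-11), and was at 422, 196, 267 and 200 CPM in Cd8a or Cd8b1 cells, where it did not pass (adjusted p = 0.13).

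Ltb was higher in HFD within Cd4 cells, at 242, 639, 567 and 495 CPM (edgeR log2 fold change 1.30, adjusted p = 0.0058), and within cells with none of the genes (0.74, adjusted p = 0.018). Tnfrsf25 passed in the same splits, at 10.3, 38.0, 33.6 and 31.6 CPM in Cd4 cells (1.78, adjusted p = 0.0034) and with a log2 fold change of 1.24 in the cells with none (adjusted p = 0.0014). Tnfsf11 was lower in both (-0.97, adjusted p = 0.014, and -1.34, adjusted p = 4.4e-06). In Cd8a or Cd8b1 cells the log2 fold changes of Ltb, Tnfrsf25 and Tnfsf11 were 0.95, 1.00 and -0.92, with the same signs, and did not pass (adjusted p = 0.12, 0.41 and 0.23). Fas passed as lower in the cells with none of the genes (-0.85, adjusted p = 0.0018). Its log2 fold change was -0.55 in Cd8a or Cd8b1 cells (adjusted p = 0.23) and had the opposite sign in Cd4 cells, at 0.13 (adjusted p = 0.71). Tnfrsf9 passed as lower in Cd4 cells (-0.99, edgeR adjusted p = 0.016). It did not pass in Cd8a or Cd8b1 cells (-1.89, adjusted p = 0.066) or in cells with none (-0.53, adjusted p = 0.057). Tnfrsf10b passed as lower in cells with none (-1.27, adjusted p = 0.00016). Neither Tnfrsf10b (adjusted p = 0.19 and 0.092) nor Tnfrsf8 (0.087 and 0.13) passed in Cd8a or Cd8b1 cells and Cd4 cells. In these splits 17.9%, 3.6% and 26.3% of all genes passed for Cd4 cells, Cd8a or Cd8b1 cells and cells with none of the genes.

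**Figure D3:**
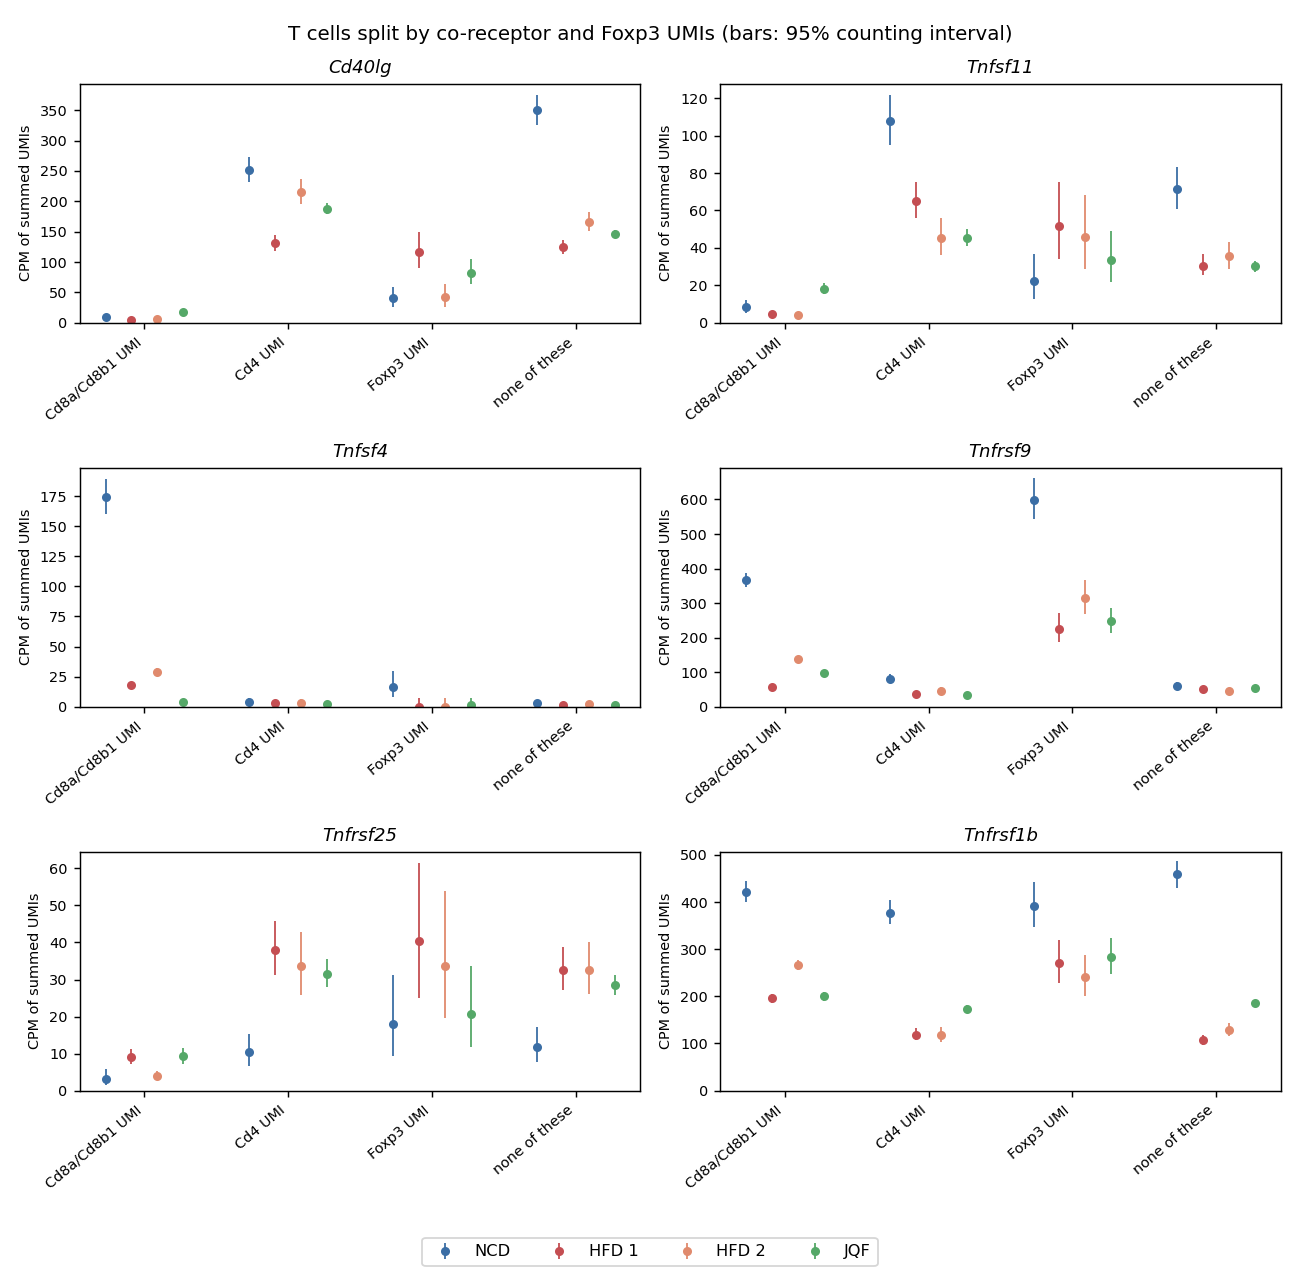
Level in CPM of members called in T cells, for each library, in T cells split by UMIs of Foxp3, Cd8a or Cd8b1, Cd4, or none of these. Tnfsf4 stands out in the Cd8a or Cd8b1 cells of NCD at 174 CPM, and Cd40lg in Cd4 cells and in cells with none of the genes.

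In conventional dendritic cells, 5 of the 7 members that passed were lower in HFD and 2 were higher, while the median log2 fold change of the 37 members tested was 0.20. The summed dendritic cell markers of these cells were 3018 CPM in NCD, 2881 and 3011 CPM in HFD and 2589 CPM in JQF. Monocyte markers summed to 567, 1053, 943 and 772 CPM and plasma cell markers to 437, 102, 146 and 194 CPM. Their part in the member values was not tested. Cd40, through which T cells activate dendritic cells, was at 208 CPM in NCD, 53.9 and 68.0 CPM in HFD and 83.2 CPM in JQF (edgeR log2 fold change -1.85, SE 0.196, adjusted p = 0.0023). Tnfsf9 was at 119, 58.0, 61.2 and 85.4 CPM (-1.08, SE 0.151, adjusted p = 0.0049) and Tnfrsf1a at 93.5, 43.9, 43.6 and 45.0 CPM (-1.18, SE 0.136, adjusted p = 0.0028). The NCD library was the highest for each. Tnfrsf1a outside cells was at 102, 66.7, 89.9 and 60.9 CPM, above the dendritic cell level in every library and also highest in NCD. A few cells carried much of the NCD level of Cd40, since 41.4% of its UMIs lay in 3 of 144 cells. Without the 5% of cells with most UMIs its log2 fold change was -1.0, and it still passed (adjusted p = 0.0065). Higher in HFD were Tnfrsf4, at 3.64, 28.3, 35.4 and 13.4 CPM (3.04, SE 0.329, adjusted p = 0.0025), and Tnfrsf11a, at 30.8, 68.8, 65.3 and 37.0 CPM (1.03, SE 0.153, adjusted p = 0.0058). The NCD value of Tnfrsf4 rested on 15 UMIs, and its log2 fold change was 2.39 without the 5% of cells with most UMIs. DESeq2 did not call Tnfrsf11a (adjusted p = 0.058). Outside cells both genes were higher in HFD as well, Tnfrsf4 at 7.82, 21.3, 16.9 and 11.5 CPM and Tnfrsf11a at 5.10, 28.2, 36.2 and 8.25 CPM. Tnfsf11 passed as lower on 22 UMIs that all lay in 3 NCD cells, against 4 and 0 UMIs in HFD, a ratio of summed UMIs of 0.0224 (95% counting interval 0.0056 to 0.0659). Its log2 fold change of -5.49 was -3.98 without HFD replicate 2.

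The dendritic cells could be split further, again after the data were seen. Cells with at least 2 of Ccr7, Fscn1 and Cacnb3, the genes of mature migratory dendritic cells, made up 7.64% of NCD, 16.8% and 19.6% of HFD and 17.5% of JQF dendritic cells. The NCD library held only 11 of them, so no test was made. Tnfrsf4 was at 35.4, 170, 194 and 85.8 CPM in these cells and at most 2.26 CPM in each of the other splits. Tnfrsf11a was also highest there, at 190, 265, 241 and 134 CPM. Cd40 reached 1282 CPM in the 11 NCD cells, 75.2% of it in 3 cells, against 177 and 196 CPM in HFD and 298 CPM in JQF. Tnfrsf1b was at 155, 204, 191 and 180 CPM in these mature cells, with NCD the lowest.

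In dendritic cells with Xcr1 or Clec9a, the markers of the cross-presenting subset, Cd40 was at 99.9, 25.5, 34.2 and 41.8 CPM (edgeR log2 fold change -1.84, adjusted p = 0.022) and Tnfsf9 at 83.6, 19.9, 18.8 and 32.5 CPM (-2.22, adjusted p = 0.014). Tnfrsf1b, at 99.1, 20.8, 26.2 and 25.2 CPM (-2.18, adjusted p = 0.016), and Tnfrsf1a, at 102, 45.8, 45.3 and 49.4 CPM (-1.26, adjusted p = 0.019), were lower there too. In this split the HFD levels of Tnfsf9, Tnfrsf1b and Tnfrsf1a lay below those outside cells, as did Cd40 in the first HFD library. The part of this RNA was not tested. All 4 genes were also lower in the remaining dendritic cells, with log2 fold changes of -1.26 for Cd40, -0.84 for Tnfsf9, -2.05 for Tnfrsf1b and -0.69 for Tnfrsf1a (adjusted p = 0.0030, 0.047, 4.0e-05 and 0.044). Tnfrsf11a did not pass in Xcr1 or Clec9a cells (0.71, edgeR adjusted p = 0.072) and passed as higher in the remaining cells (1.05, adjusted p = 0.048). Tnfrsf4, at no more than 11 UMIs per library, did not pass in Xcr1 or Clec9a cells (0.76, adjusted p = 0.78). All genes passed at 15.4% and 19.5% in these 2 splits.

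**Figure D4:**
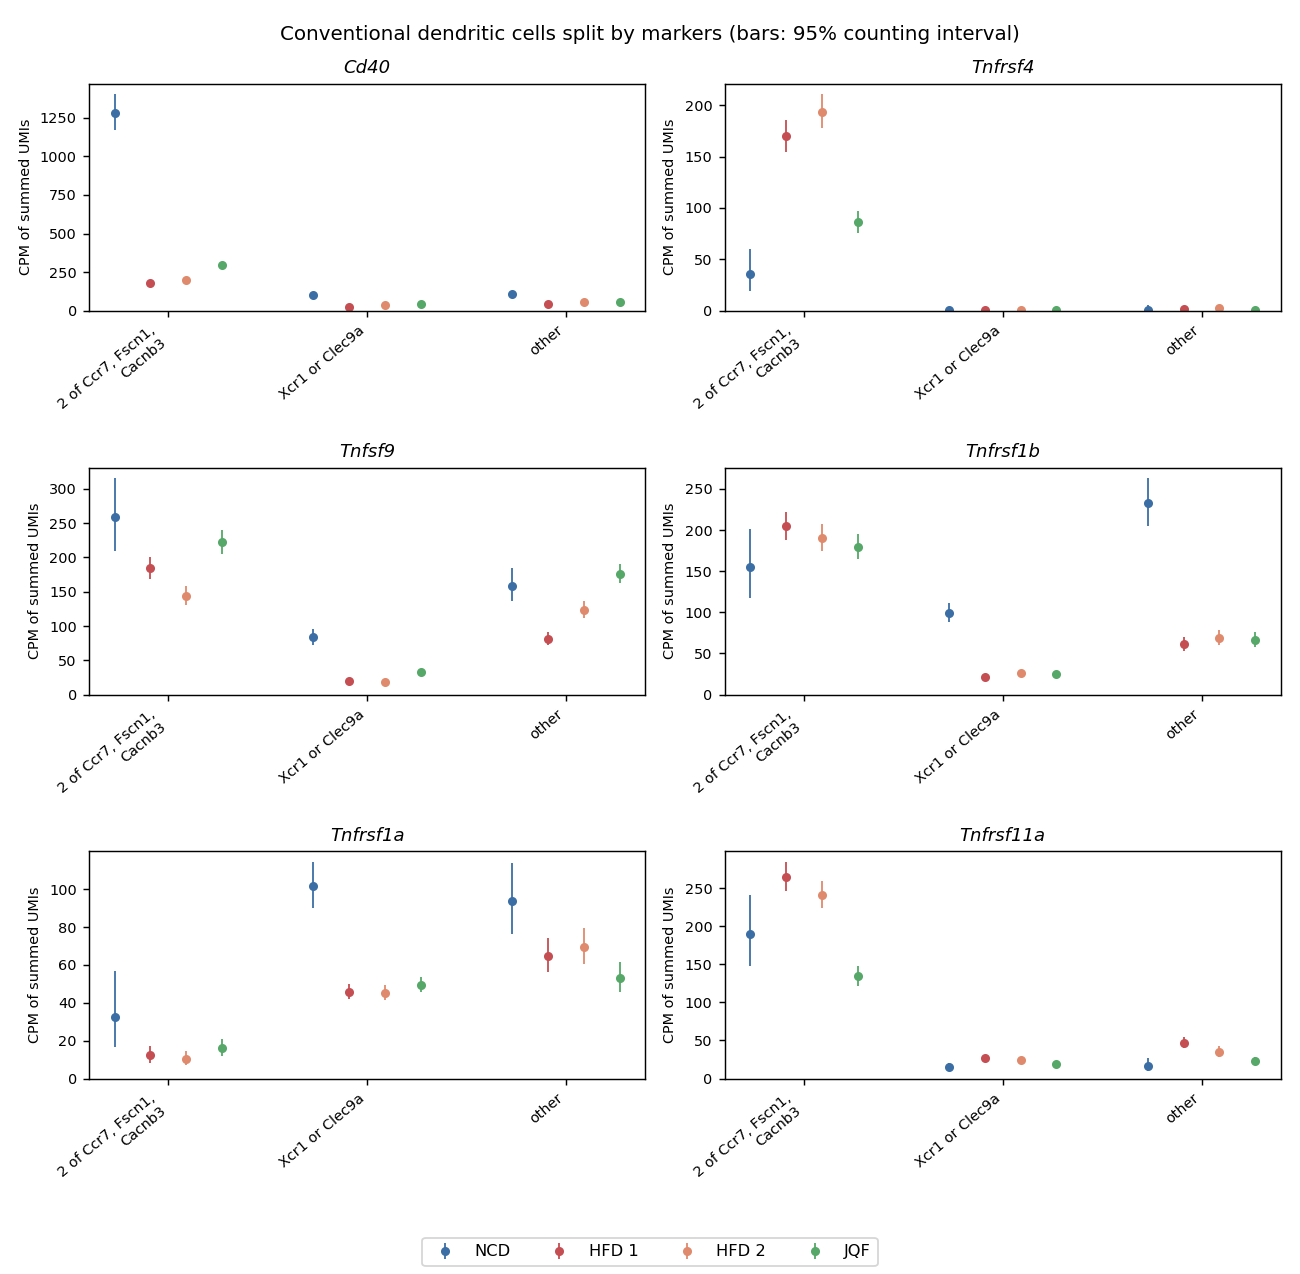
Level in CPM of members called in conventional dendritic cells, for each library, in cells with 2 of Ccr7, Fscn1 and Cacnb3, cells with Xcr1 or Clec9a, and other dendritic cells. Tnfrsf4 is near 0 outside the first split, while Cd40 and Tnfsf9 are lower in HFD than in NCD in all of them.

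In macrophages, Cd40 was the only one of 27 members to pass, at 96.7 CPM in NCD, 28.5 and 30.8 CPM in HFD and 37.1 CPM in JQF (edgeR log2 fold change -1.61, SE 0.149, adjusted p = 0.036). Endothelial cell markers (904, 216, 438 and 414 CPM) and B cell markers (396, 169, 243 and 197 CPM) in the macrophages were also highest in NCD. Outside cells Cd40 stood at 19.1 CPM in NCD, 33.7 and 31.6 CPM in HFD and 23.4 CPM in JQF. The HFD macrophage levels thus lay below the level outside cells, and the NCD level above it. The part of these markers and of RNA outside cells in the Cd40 value was not tested. Macrophages with at least 3 of the Kupffer cell markers made up 84.0% of the NCD macrophages but 5.76% and 40.7% in HFD and 49.2% in JQF, and within them Cd40 was at 83.7, 57.4, 28.2 and 21.2 CPM, the first HFD value resting on 33 cells. In B cells, Tnfrsf13c and Tnfrsf13b, both of which bind BAFF, were higher in HFD, Tnfrsf13c at the levels given above (log2 fold change 1.65, SE 0.224, adjusted p = 0.0040) and Tnfrsf13b at 48.4, 127, 94.6 and 108 CPM (1.13, SE 0.242, adjusted p = 0.017). DESeq2 did not call Tnfrsf13b (adjusted p = 0.16). Tnfrsf13c and Ltb in B cells passed under all 9 alternatives.

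The ligand Tnf itself, which is no member by the rule, was at 572, 118, 137 and 301 CPM in macrophages and lower in HFD (edgeR log2 fold change -2.07, adjusted p = 0.038). In T cells (55.5, 163, 79.3 and 120 CPM) and NK cells (95.8, 236, 196 and 144 CPM) it was higher in HFD, with log2 fold changes of 1.07 and 0.96 (adjusted p = 0.036 and 0.013). Outside cells Tnf stood at 54.4, 243, 212 and 185 CPM. The HFD levels of T cells, NK cells and macrophages thus lay below the level outside cells, whereas in NCD macrophages and NK cells lay above it and T cells beside it (55.5 against 54.4 CPM), and the part of RNA outside cells in these calls was not tested. B cells passed too, from 5.90 CPM in NCD to 58.0 and 64.7 CPM in HFD (3.31, adjusted p = 0.0013), below the level outside cells in every library. Fasl was lower in HFD in NK cells, at 251, 113, 116 and 111 CPM (-1.35), and in T cells, at 194, 106, 116 and 87.7 CPM (-0.84).

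The comparison of JQF with HFD asked which members differed with the formula on the same diet. The HFD libraries are shared with the comparison above, so the 2 comparisons are not independent, and a value that is off in HFD moves both. Members passed 8 times in 184 tests (4.35%). By type, 5 of 36 passed in T cells, where 1.88% of all genes did, 2 of 22 in NK cells (2.82%), 1 of 22 in B cells (0.263%), and 0 in conventional dendritic cells (0.825%), macrophages (0.03016%), neutrophils (0.1246%) and endothelial cells (1.62%). In the types with no call, the number of members with an unadjusted edgeR p under 0.05 was 7, 2, 0 and 1 in the same order, beside 10.8%, 8.79%, 4.61% and 7.08% of all genes, and DESeq2 called 0 in each. Monocytes and epithelial cells had too few NCD cells, and a fit without NCD called 0 of 29 and 0 of 20 members, where 0.0406% and 0.0% of all genes passed, so these 0 counts carry little information. At an unadjusted p under 0.05 there were 4 and 0 members, beside 11.2% and 2.49% of all genes.

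In T cells, Cd40lg (161, 60.5, 62.7 and 123 CPM in NCD, HFD and JQF) was higher in JQF than in HFD (log2 fold change 1.09, SE 0.183, edgeR adjusted p = 0.0072). Tnfrsf10b was higher as well (1.14, SE 0.254, adjusted p = 0.037). Lower in JQF were Tnfsf4 (-2.61, SE 0.394, adjusted p = 0.0033, and -1.94 without HFD replicate 2), its receptor Tnfrsf4, at 60.2, 41.9, 49.96 and 19.2 CPM (-1.17, SE 0.220, adjusted p = 0.015), and Tnfsf13b, at 6.13, 6.17, 7.04 and 1.59 CPM (-1.96, SE 0.461, adjusted p = 0.050). JQF was below all other libraries for these 3 genes. The share of T cells with a Foxp3 UMI, in which Tnfrsf4 was high, was 4.72%, 3.26%, 3.48% and 1.93% over the same libraries. The part of this share in the Tnfrsf4 value was not tested. Within the splits of T cells by Cd4 and Cd8a or Cd8b1, none of the 5 passed, at adjusted p of 0.065 or more, and 0.825%, 0.467% and 2.81% of all genes passed in Cd4 cells, Cd8a or Cd8b1 cells and cells with none of the genes. The log2 fold changes in Cd8a or Cd8b1 cells were -2.51 for Tnfsf4, -1.99 for Tnfsf13b, -1.88 for Tnfrsf4, 1.49 for Tnfrsf10b and 1.82 for Cd40lg, each at least as far from 0 as in all T cells apart from Tnfsf4. In Cd4 cells they were -0.29 for Tnfsf4, -0.12 for Tnfsf13b, -1.24 for Tnfrsf4 and 0.78 for Tnfrsf10b, and in cells with none of the genes -1.03 for Tnfrsf4 and 0.24 for Tnfrsf10b. For Cd40lg the log2 fold change was 0.16 in Cd4 cells and 0.10 in cells with none of the genes (adjusted p = 0.92 and 0.91), the 2 splits that held most of its UMIs, beside the JQF share of 23.3% Cd8a or Cd8b1 cells against 51.4% and 60.9% in HFD. The part of this makeup in the T cell values was not tested.

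In NK cells, Tnfrsf1b was at 197 CPM in JQF against 92.9 and 94.98 CPM in HFD (log2 fold change 1.19, SE 0.187, edgeR adjusted p = 0.0041). Tnfsf11 passed there as well, at 10.2, 2.35, 0.748 and 15.2 CPM (3.14, SE 0.714, adjusted p = 0.030, and 2.39 without HFD replicate 2), but 96.9% of its 32 UMIs in JQF lay in 3 cells. In B cells, Tnfrsf8, the CD30 receptor, was at 5.28, 4.66, 6.25 and 30.4 CPM (2.58, SE 0.394, adjusted p = 0.042), with 25.3% of its 87 JQF UMIs in 3 cells. Under DESeq2 3 of the 8 calls were kept, those of Cd40lg, Tnfrsf4 and Tnfsf4 in T cells, and 2 had no adjusted p, those of Tnfsf11 in NK cells and Tnfrsf8 in B cells. Each of these 2 was lost under 3 other alternatives, among them the stricter gate and counts thinned to the lowest total. The 3 kept calls were lost without the 5% of cells with most UMIs (adjusted p = 0.078, 0.13 and 0.080). Of the other 3, Tnfsf13b and Tnfrsf10b in T cells were lost under 6 and 5 of the 9 alternatives, and Tnfrsf1b in NK cells under DESeq2 (adjusted p = 0.064). Thus 0 of the 8 calls passed under all 9 alternatives, compared with 16 of the 29 calls of HFD against NCD.

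The design also allows a reading of which ligands had a receptor in the same library. A pair was counted as present where some type held the ligand and some type the receptor. Of 26 pairs listed, 14 were present in NCD, 16 in each HFD library and 18 in JQF, and 11 were present in all 4 libraries. The 11 pairs were Tnf with Tnfrsf1a and with Tnfrsf1b, Ltb and Tnfsf14 with Ltbr, Cd40lg with Cd40, Fasl with Fas, Tnfsf9 with Tnfrsf9, Tnfsf11 with Tnfrsf11a, Tnfsf13 with Tnfrsf13b, and Tnfsf13b with Tnfrsf13b and with Tnfrsf13c. Presence of both RNAs shows neither contact nor signalling.

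The types at the ends of these pairs can be named. Fasl was highest in NK cells and Fas in neutrophils in every library. Tnfsf11 was highest in T cells and Tnfrsf11a in macrophages in every library, and Ltbr, facing Ltb and Tnfsf14, was highest in endothelial cells throughout. Stellate cells or fibroblasts, under 50 cells in every library, were not among the types compared. The ends of Cd40lg and Cd40 changed in part, as Cd40lg stayed highest in T cells, whereas Cd40 was highest in conventional dendritic cells in NCD (208 CPM), in B cells in HFD (95.8 and 94.6 CPM) and in monocytes in JQF (107 CPM). The NCD monocytes were too few to count. Over the libraries, B cells held 83.5 to 101 CPM and monocytes 88.4 to 107 CPM of Cd40, and these ranges overlapped. A few cells carried much of the NCD dendritic cell level, as given above. Tnfsf9 was highest in conventional dendritic cells in NCD and the first HFD library and in monocytes in the other two.

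Of the remaining pairs, 7 were present in no library, as Tnfrsf14, Tnfrsf11b, Cd70, Tnfsf15 and Tnfsf18 were present in none. They were Lta and Tnfsf14 with Tnfrsf14, Cd70 with Cd27, Tnfsf10 and Tnfsf11 with Tnfrsf11b, Tnfsf15 with Tnfrsf25 and Tnfsf18 with Tnfrsf18. In NCD the partners Lta and Tnfrsf25 were missing as well. Some were present in part. Tnfsf4 with Tnfrsf4 was missing in JQF alone, where no type reached 10 CPM of Tnfsf4, and Lta with Tnfrsf1a or Tnfrsf1b was missing in NCD alone. Tnfsf10 with Tnfrsf10b was missing in the second HFD library and Tnfsf8 with Tnfrsf8 in the first. Tnfsf12 with Tnfrsf12a was missing in NCD, where the epithelial cells that hold Tnfrsf12a were under 50, and both pairs of Tnfrsf17 were counted in JQF alone, where plasma cells reached 50. Presence in the pairs of Tnfrsf17 thus moved with cell number. Hepatocytes, with at least 50 cells in NCD and HFD, held 1.4 CPM of Tnfrsf12a in NCD and 109 and 11.5 CPM in HFD. The part of cell number in the presence of the Tnfsf12 pair was not tested.

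Downstream of the receptors, a list of 28 genes of TNF receptor to NF-kappaB and death signalling was read in the same fits. In HFD against NCD, 7 of 28 passed in B cells, 8 of 28 in T cells, 13 of 28 in NK cells, 15 of 28 in conventional dendritic cells, 4 of 28 in macrophages, 1 of 27 in neutrophils and 7 of 28 in endothelial cells, in all 55 of 195 (28.2%). All genes passed at 16.9%, 14.1%, 17.9%, 23.1%, 6.6%, 6.33% and 15.2% in the same order. The median log2 fold change of the list was negative in every type, from -0.30 in neutrophils to -0.78 in NK cells, beside 0.01 to 0.13 for all genes. Birc3, an inhibitor of apoptosis, the NF-kappaB subunits Rel and Relb, and Tank were each lower in 5 types. Casp8 was called higher in 1 type and lower in none. Birc2 and Nfkbia were each called higher in 1 type and lower in 1, and Traf1 higher in 1 and lower in 2.

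The 4 smallest adjusted p-values of the list were all in endothelial cells. Spread was shared among genes within each type, so p-values of different types are not on one scale. This order therefore does not rank the size of change between types. In NK cells, Rel had a log2 fold change of -1.92 with SE 0.185 and an edgeR adjusted p = 1.1e-05. Ripk1, the kinase that links TNFR1 to survival or necroptosis, was at 359 CPM in NCD, 85.9 and 79.9 CPM in HFD and 111 CPM in JQF (edgeR log2 fold change -2.27, SE 0.240, adjusted p = 5.2e-19). Traf5, a TRAF adaptor, was at 60.9, 16.4, 17.3 and 23.5 CPM (-1.98, SE 0.283). Rel was at 176, 53.1, 71.7 and 66.6 CPM (-1.58, SE 0.234) and Birc3 at 243, 115, 103 and 101 CPM (-1.33, SE 0.236). NCD was the highest library for each of the 4. The first HFD library held 105 endothelial cells.

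Against HFD, JQF had 6 of 195 calls of the list (3.08%), all higher, with 3 in T cells, 2 in NK cells and 1 in B cells, where 1.88%, 2.82% and 0.263% of all genes passed. Nfkb1 in T cells was at 1328 CPM in NCD, 448 and 386 CPM in HFD and 792 CPM in JQF (log2 fold change 1.02, SE 0.233, edgeR adjusted p = 0.043), and Birc3 at 310, 173, 165 and 289 CPM (0.86, SE 0.194, adjusted p = 0.040). Rel in NK cells was at 562, 186, 159 and 282 CPM (0.82, SE 0.184, adjusted p = 0.028) and Traf1 in B cells at 210, 85.4, 101 and 235 CPM (1.46, SE 0.218, adjusted p = 0.038).

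**Figure D5:**
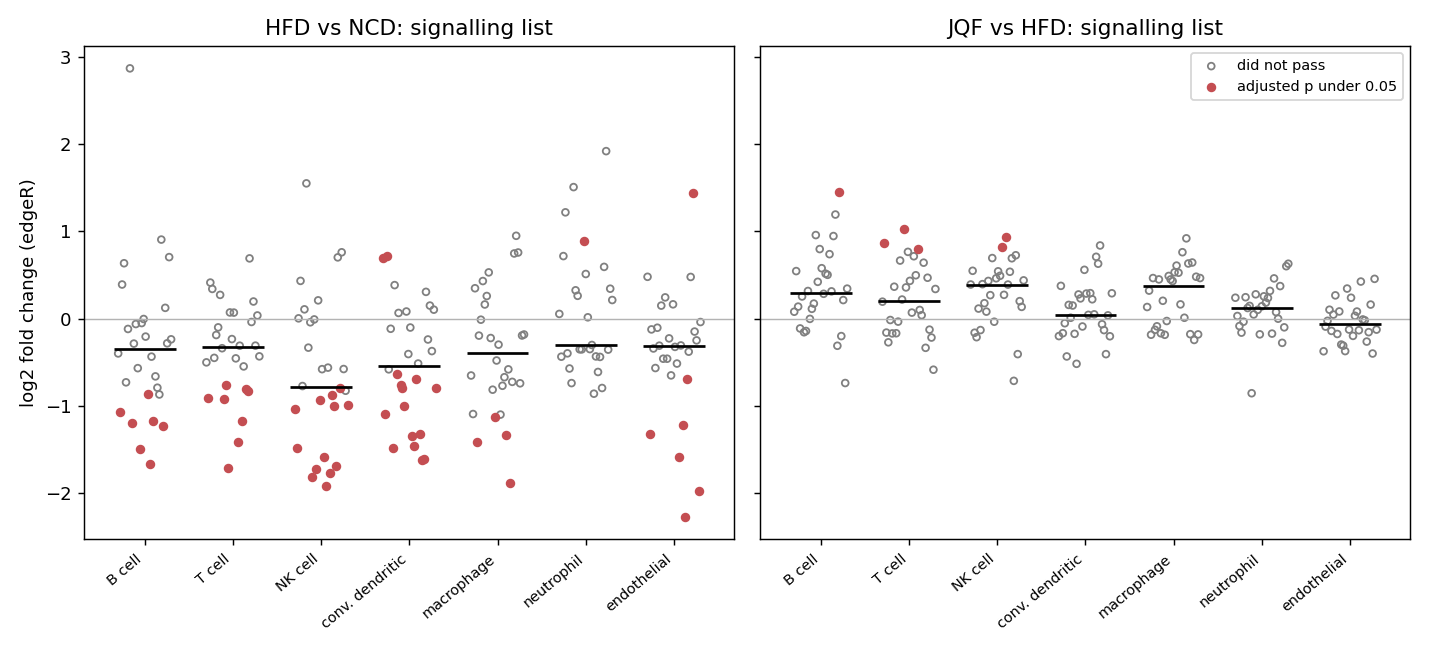
Log2 fold changes of the genes of the signalling list in each tested cell type, for HFD against NCD and for JQF against HFD, with 1 point per gene, filled where the gene passed the edgeR test. For HFD against NCD the medians lie between -0.30 and -0.78, and for JQF against HFD between -0.06 and 0.39.

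Genes that respond to handling and stress also differed between the libraries, though not alike in every type. The summed level of 10 immediate-early and heat-shock genes was 12231 CPM in NCD NK cells, 4108 and 4877 CPM in HFD and 8663 CPM in JQF, and 6753, 2191, 2359 and 2294 CPM in endothelial cells. In T cells it was 8315, 6681, 5417 and 9854 CPM and in B cells 11715, 6411, 10444 and 12947 CPM, with JQF the highest in both. Neutrophils had 22439, 22128, 18473 and 22367 CPM. Of these 10 genes, 10 were higher in NCD than in both HFD libraries in NK cells, conventional dendritic cells and macrophages, 9 in endothelial cells, 8 in T cells, 7 in B cells and 5 in neutrophils, and none was at 0 in all libraries. Hepatocyte markers, which free RNA carries into other cells, summed to 127 to 346 CPM in the NCD types and to 26.8 to 169 CPM in HFD. In endothelial cells the 13 mitochondrial genes summed to 25444 CPM in NCD, 42538 and 43530 CPM in HFD and 37902 CPM in JQF, and the median UMIs per cell were 15973, 6283, 6190.5 and 8028. The part of these measures in the values of the superfamily and of the signalling list was not tested.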

How the data were processed

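The authors aligned 10x Genomics 3' v3.1 reads to mm10. The submitters' processing notes name Cell Ranger 6.0.1 and Seurat 4.0.3, whereas the file headers name other Cell Ranger versions, so whether introns were counted is not settled. The deposited values are raw UMI counts per gene and barcode, in a filtered and an unfiltered matrix per library. Depth is given in the report, and counting intervals and floors cover counting error only.

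Cells were assigned with Python 3.11.15, numpy 2.4.6, pandas 2.3.3 and scipy 1.17.1. For each of 13 marker lists (122 markers), the score was the mean of the 5 highest markers in a cell, each on a log scale relative to its 90th percentile among the cells that hold it. A cell took the best list where that list had at least 3 markers detected and at least 1.25 times the next score, and where T and NK cells were the leading lists, 2 of the 4 genes Cd3d, Cd3e, Cd3g and Trac made a T cell. This scoring rule was set after the cells had been seen. In all, 855 assigned cells had exactly 3 markers, 1177 were under 1.5 times the next score, and 509 and 1382 cells were left out by 1 marker or by the ratio. No doublet caller was run, and cells that mix markers fall to the ratio.

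Summed counts were fitted with edgeR 4.0.16 in R 4.3.3 (filterByExpr, TMM, glmQLFit, glmQLFTest) with group as the only term, and DESeq2 1.42.0 as an alternative. Standard errors (SE) were taken as the size of the log2 fold change over the root of the F statistic. The script was tested on simulated data. Other alternatives were no filter on low counts, library totals without TMM, looser and stricter cell filters (200 genes, or 1000 genes and 10% mitochondrial counts), looser and stricter gates (2 or 4 markers), counts thinned to the lowest total, no cells among the 5% with most UMIs, and leaving out each HFD library. Within-split fits and the fit without NCD were added after the data were seen. Values are given for members that passed 0.05 in any type and for members at 30 CPM or more in 3 libraries, in that type, and for at most 4 signalling genes per comparison by smallest adjusted p. The promoter motif, the stress gene list and other values named beside these were chosen later. The members and lists were chosen with earlier results of these data known. Coordinates are GRCm38 (GENCODE M21), to which all 40 members matched, and 6 of them overlap a gene on the same strand and 13 one on the opposite strand.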

Additional observations from a re-analysis of the deposited data

Results flagged for a closer look

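Fas differed in direction between cell types for HFD against NCD. In T cells all HFD libraries were below NCD (82.3 CPM in NCD, 52.8 and 52.0 CPM in HFD, log2 fold change -0.69, edgeR adjusted p = 0.025), and in neutrophils all were above it (236, 375 and 328 CPM, log2 fold change 0.57, adjusted p = 0.30). The log2 fold change in T cells minus that in neutrophils was -1.26. This difference was not tested, the neutrophil value did not pass, Fas outside cells (77.3 CPM in NCD, 40.9 and 40.4 CPM in HFD) moved as in T cells, and the groups hold 1 and 2 libraries.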

How the results depend on the processing

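For HFD against NCD, 29 member calls became 19 under DESeq2, which gave 3 of the others no adjusted p. For JQF against HFD, 8 member calls became 19 with no filter on low counts, 3 under DESeq2 (2 others had no adjusted p), 5 with a stricter gate and 5 without the 5% of cells with most UMIs. The 6 calls of the signalling list in JQF against HFD became 21 with no filter and 3 under DESeq2, the looser and the stricter cell filter, while its 55 calls in HFD against NCD ranged from 38 to 75. The 11 pairs ranged from 8 to 15 and the 26 members present from 21 to 30, leaving out each HFD library included. For single members, 1 value reversed, Fas in T cells of HFD against NCD, at 0.13 within T cells with a Cd4 UMI, and the cause was not tested. Leaving out an HFD library leaves no residual degree of freedom, so single members have a log2 ratio without a test and counts of calls have no value. No paired analysis was possible because the groups share only replicate number 1. The low UMI numbers of Tnfsf11, Lta, Tnfrsf8 and Tnfrsf10b, the 65 NK and 99 neutrophil cells of NCD, and groups of 1 library limit what could be detected.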
